A study of Homo sapiens with 12 samples.

Results

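The proteasome genes of 2 pancreatic cancer lines and of the gemcitabine (GEM)-resistant lines derived from them were read from RNA sequencing. The members were all genes whose name is PSM followed by a letter from A to G and a number, which gave 48 genes of the 58302 in the table, a rule on names that uses no measured value. They were sorted by role into 7 genes of the core alpha ring, 7 of the constitutive core beta ring, 3 catalytic subunits of the immunoproteasome, 2 tissue-restricted core subunits, 6 ATPases and 3 other subunits of the base, 8 of the lid, 3 chaperones of the base, 4 chaperones of the core, and 5 activators or inhibitors. Of the 48 members, 43 passed the limit of a mean of at least 1 FPKM (fragments per kilobase of gene, scaled to the mapped fragments of a library) in the BxPC-3 lines and 45 passed it in the CFPAC-1 lines.

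The proteasome is the protease that degrades proteins tagged with ubiquitin. Its core particle is a barrel of outer alpha rings, which gate the entrance, and inner beta rings, in which PSMB5, PSMB6 and PSMB7 carry the chymotrypsin-like, caspase-like and trypsin-like active sites. The regulatory particle caps the barrel: a base with a ring of PSMC ATPases unfolds the substrate, and a lid around the deubiquitinase PSMD14 removes its ubiquitin. Interferons induce PSMB8, PSMB9 and PSMB10, which replace PSMB5, PSMB6 and PSMB7 in newly built immunoproteasomes, and the activator subunits PSME1 and PSME2, both known for their part in antigen processing. The subunits are needed in fixed proportions, and their genes are known to be induced together by the transcription factor NFE2L1 when proteasome activity is short.

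BxPC-3 and CFPAC-1 are lines of human pancreatic ductal adenocarcinoma, both labelled as sensitive to GEM, a nucleoside analog that blocks DNA synthesis, and as epithelial in morphology. From these, BxPC-3-GR and CFPAC-1-GR arose by stepwise increases of GEM, with outgrowth of the survivors in drug-free medium between steps, and are labelled as resistant. The label gives BxPC-3-GR a mesenchymal and CFPAC-1-GR an epithelial morphology. Each resistant line is a single derivative of its parental line, each of the 4 lines has 3 libraries, and no source used here says that the libraries came from separate cultures, so that p-values measure the spread between these libraries, which may be technical.

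The table implied a depth of 12600000 to 25200000 fragments per library, inferred from the steps between low values, of which 52.2% to 64.7% were whole numbers of fragments within 0.02. The 6 epithelial markers summed to 2636 to 2914 FPKM in CFPAC-1, 1156 to 1347 in CFPAC-1-GR and 838 to 1012 across the libraries of both BxPC-3 lines, and the 4 mesenchymal markers to 12.4 to 15.1 FPKM in BxPC-3, against 14.7 to 16.6 in BxPC-3-GR. For the CFPAC-1 lines that sum was 119.7 to 155 FPKM in the parental libraries and 85.2 to 98.4 in the resistant ones. In BxPC-3-GR, labelled mesenchymal, these markers differed in direction: the mean of VIM, a filament protein, was 6.59 FPKM in BxPC-3 and 0.813 in BxPC-3-GR, that of CDH2 1.99 and 5.40, and that of FN1 5.30 and 9.09, while ZEB1 was below 0.1 FPKM in both. The part of cell state in the results was not tested. Fibroblast markers summed to at most 3.44 FPKM in any library. The 5 immune markers summed to 29.4 to 37.0 FPKM in CFPAC-1 but 9.91 to 12.03 in CFPAC-1-GR, nearly all of it CD68, while PTPRC, the marker of all leukocytes, was at 0 in all 12 libraries. In bulk RNA, fewer cells of a kind and less RNA per cell cannot be told apart.

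The summed FPKM of all 48 members was 0.706 of the parental mean in BxPC-3-GR, and for CFPAC-1-GR it was 0.779. The sums were 975, 963 and 906 FPKM in the BxPC-3 libraries and 682, 695 and 629.7 in BxPC-3-GR. They were 1324, 1243 and 1246 in CFPAC-1 and 998, 1014 and 957 in CFPAC-1-GR. In both pairs of lines every resistant library lay below every parental library. With 3 libraries against 3, an exact permutation test of a single value cannot go below a 2-sided p of 0.1, so sums are given without a test and genes were tested with limma across all genes.

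The roles did not share 1 ratio. In BxPC-3-GR the sum of the alpha ring was 0.649 of the parental mean, that of the constitutive beta ring 0.795, of the base ATPases 0.585 and of the lid 0.631. The corresponding ratios in CFPAC-1-GR were 1.24 for the alpha ring, 0.612 for the beta ring, 0.783 for the ATPases and 0.789 for the lid. Alpha and beta subunits are built into the core in equal numbers. The alpha ring genes summed to 127, 130.1 and 115 FPKM in CFPAC-1 and, higher, to 159, 160.1 and 144 in CFPAC-1-GR. The beta ring genes summed to 492, 439 and 449 FPKM in CFPAC-1 and, lower, to 278, 287 and 281 in CFPAC-1-GR. None of these ranges overlapped between CFPAC-1 and CFPAC-1-GR. The sums were not corrected for GC content or gene length. Once log ratios of single genes were so corrected, as described below, 2 alpha ring genes rose in CFPAC-1-GR and 3 fell. All 7 beta ring genes fell under that correction.

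**Figure D1:**
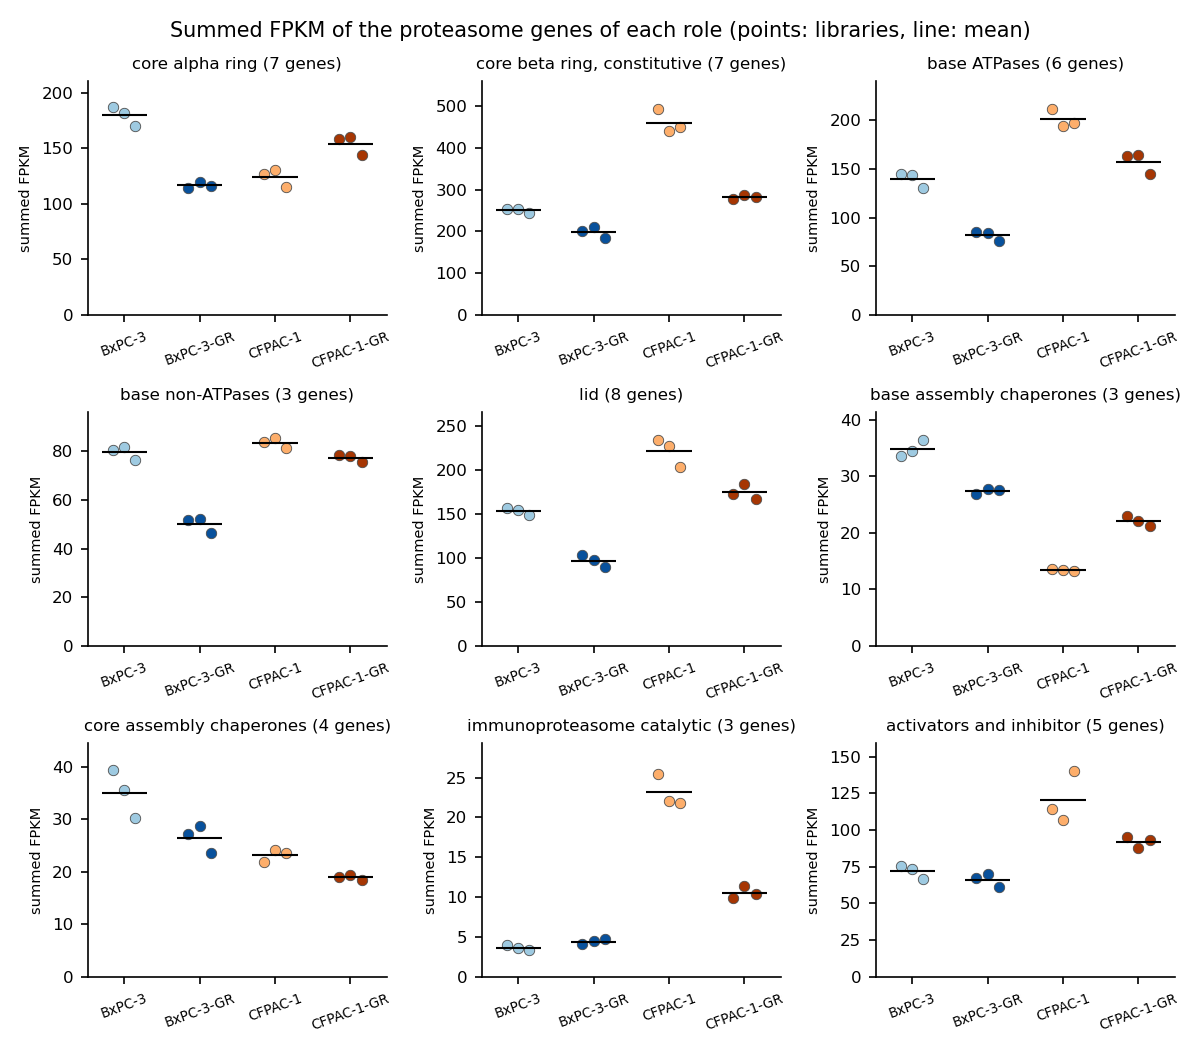
Summed FPKM of the members of each role, with 1 point per library and a line at the mean of the 3 libraries of each line. The FPKM were not corrected for GC content or gene length. In BxPC-3-GR, 8 of these 9 sums have a mean below that of BxPC-3, while in CFPAC-1-GR the means of the alpha ring and of the base chaperones lie above those of CFPAC-1 and the 7 others below.

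Within a line, FPKM of the 31 constitutive subunits of core, base and lid spanned a wide range on the per-length scale of FPKM, on which levels also carry the GC content of the transcript and fragments shared with processed copies, so that their order is approximate. In BxPC-3 the highest mean was 94.0 FPKM for PSMA7 and the lowest 2.31 for PSMB3, with a median of 19.2. CFPAC-1 ranged from 1.02 FPKM for PSMC6 to 119 for PSMD3, with a median of 19.3. In the resistant lines PSMB1 was the highest, at 56.8 FPKM in BxPC-3-GR, with 92.8 in CFPAC-1-GR, and the medians were 14.6 and 20.7. The median of the 31 lay lower in BxPC-3-GR than in BxPC-3 but not in CFPAC-1-GR, where the lowest mean, 4.73 for PSMD6, was above that of CFPAC-1.

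In BxPC-3-GR, 34 of the 43 tested members fell, 2 rose (PSMB2 and PSME1) and 7 were not called at an adjusted p below 0.05, against a background of 31.5% of all 11710 tested genes called down and 26.2% called up. Members that fell thus made up 79.1% of those tested. The median log2FC was -0.38 over the members and -0.045 over all tested genes, and 39 of 43 members had a value below 0. After the log ratios were corrected for GC content and gene length, 33 members fell (background 30.9%) and 3 rose (28%), and the median was -0.36. Beyond an absolute log2FC of 1, the criterion for significant differential expression (SDE), 2 members fell (background 3.62%) and 0 rose (4.14%). In 34 of 43 members all 3 resistant libraries lay below all 3 parental ones, as they did in 36% of all tested genes, and in 2 all lay above (30.1%).

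In CFPAC-1-GR, 20 of the 45 tested members rose, 20 fell and 5 were not called, against 44.6% of all 12051 tested genes called up and 34.9% called down. Both shares were 44.4% among the members. SDE members numbered 8 up (background 20.5%) and 4 down (11.7%), and the groups did not overlap in 20 members that were higher (45.7%) and 21 that were lower (36.4%). The median log2FC was 0.0021 over the members and 0.13 over all tested genes. By role, 6 of 7 alpha ring genes rose and 0 fell, while all 7 genes of the constitutive beta ring fell. Of the remaining roles, the lid had 5 of 8 up and 2 down, and the base ATPases 3 of 6 up and 2 down.

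**Figure D2:**
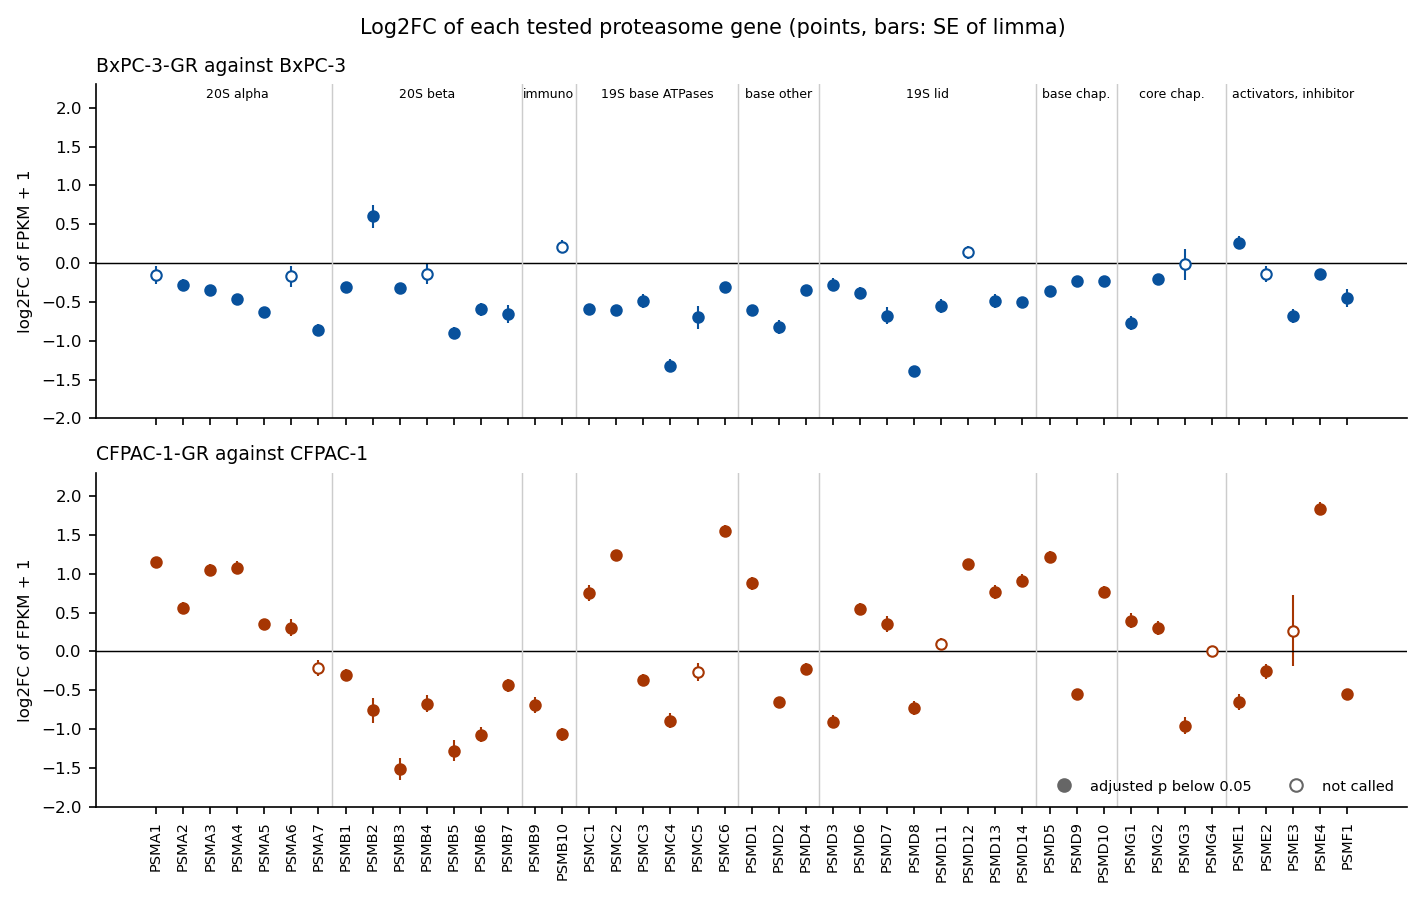
Log2FC of every tested member on the scale of log2(FPKM + 1), grouped by role, for BxPC-3-GR (upper panel) and CFPAC-1-GR (lower panel). Bars are standard errors from limma over 3 against 3 libraries, and filled points have an adjusted p below 0.05. Of the filled points 34 lie below 0 and 2 above in the upper panel, against 20 and 20 in the lower.

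Log2FC in CFPAC-1-GR ran with the GC content of the transcript. Across all tested genes Spearman's rho with GC content was -0.78 in CFPAC-1-GR and 0.039 in BxPC-3-GR, and across the members it was -0.73 (45 genes) and -0.14 (43 genes). Genes of 1 library share its depth and base composition and are not independent, so no p is given. Of the 16 members with a GC content below 45%, 14 rose in CFPAC-1-GR and 2 fell, and of the 17 at 50% or above 1 rose and 14 fell. In between, 5 of 12 rose and 4 fell. The corresponding counts in BxPC-3-GR were 1 up and 13 down of 16, 1 up and 12 down of 16, and 0 up and 9 down of 11. No shares of all tested genes are given for these classes of GC content, so the counts describe the members only. Once corrected, 9 members rose in CFPAC-1-GR (background 29.6%) and 21 fell (30.6%), with a median of -0.16. Among the alpha ring genes the correction left 2 up and 3 down, while all 7 beta ring genes still fell, with a median of -0.96. The 2 members of low GC content that fell in CFPAC-1-GR were the beta ring genes PSMB1 (40.7% GC) and PSMB2 (43.6%).

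Other scalings of the libraries moved the split in the same direction. Median-of-ratios scaling gave 15 members up and 22 down in CFPAC-1-GR, and upper-quartile scaling gave 14 up and 24 down. Shares of all genes called under these scalings are not given here. The median of all genes tested was -0.13 and -0.24 under these scalings, and the alpha ring had 4 up and 1 down under the former and 3 up and 1 down under the latter. All 7 beta ring genes fell under both.

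**Figure D3:**
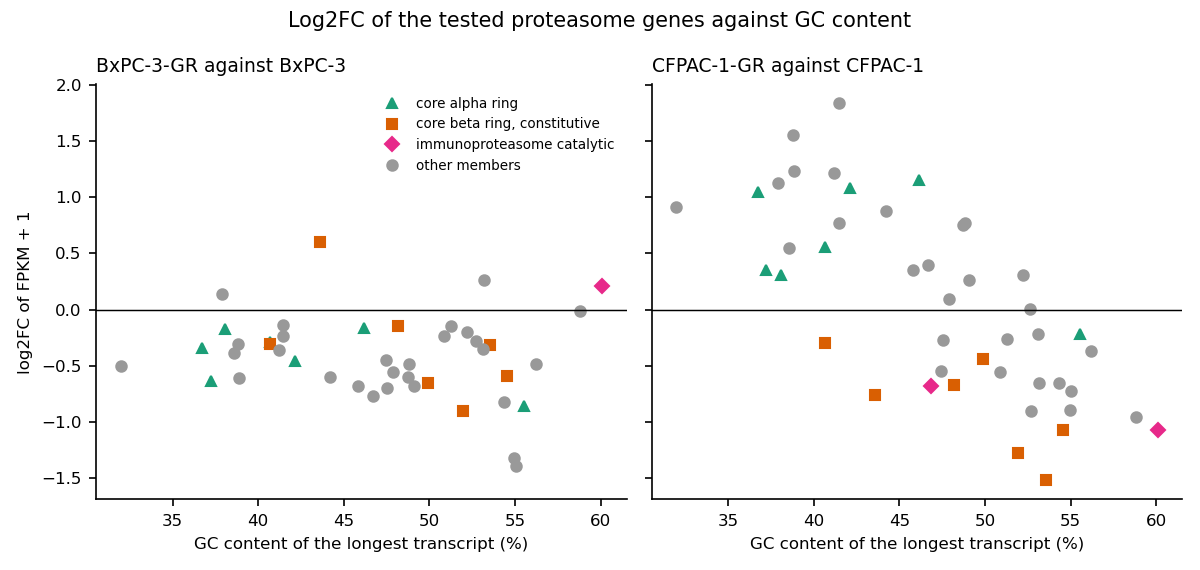
Log2FC of the tested members against the GC content of the longest transcript of each gene, for BxPC-3-GR (43 members, left) and CFPAC-1-GR (45 members, right). Spearman's rho was -0.14 on the left and -0.73 on the right, where the beta ring genes (squares) all lie below 0 and 6 of 7 alpha ring genes (triangles) above 0.

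The responses of the 2 lines were compared with an interaction term over all 12 libraries, as the log2FC in CFPAC-1-GR minus that in BxPC-3-GR. This difference was called above 0 (higher) in 25 of 45 tested members, below 0 (lower) in 10 and not called in 10. The backgrounds were 44.9% and 31.6% of 12210 genes. Higher and lower refer here to the response and not to the level of FPKM. The difference passed an absolute value of 1 in 14 members that were higher (background 23.6%) and in 3 that were lower (14.4%). After the correction 19 were higher (31.6%) and 13 lower (31.7%). The split was 21 higher and 14 lower with median-of-ratios scaling and 18 higher and 17 lower with upper-quartile scaling, without shares of all genes. Of the 43 members tested in both lines, 13 fell in both, 17 fell in BxPC-3-GR, but rose in CFPAC-1-GR, and 2 (PSMB2 and PSME1) rose in BxPC-3-GR, but fell in CFPAC-1-GR. Of the 10393 genes tested in both lines, 11.3% fell in both, 15.5% fell in the first and rose in the other, 9.92% did the reverse and 11.9% rose in both, as 0 members did. The interaction was called for each of these 17 and of these 2. With the correction 17 members fell in both lines, and 8 fell in BxPC-3-GR but rose in CFPAC-1-GR. Of these 8, 6 (PSMC1, PSMC6, PSMD5, PSMD13, PSME4 and PSMG2) were called in these directions also without it. The shares of all genes above are of uncorrected calls, and none are given here for the corrected ones. The corrected counts therefore describe the members only. PSMB2 kept its opposite calls and PSME1 did not. By role, the difference was called above 0 in all 7 alpha ring genes and below 0 in 0. For the beta ring it was called above 0 in 0 genes and below 0 in 4. These counts became 4 higher and 2 lower for the alpha ring and 0 and 4 for the beta ring after the correction.

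**Figure D4:**
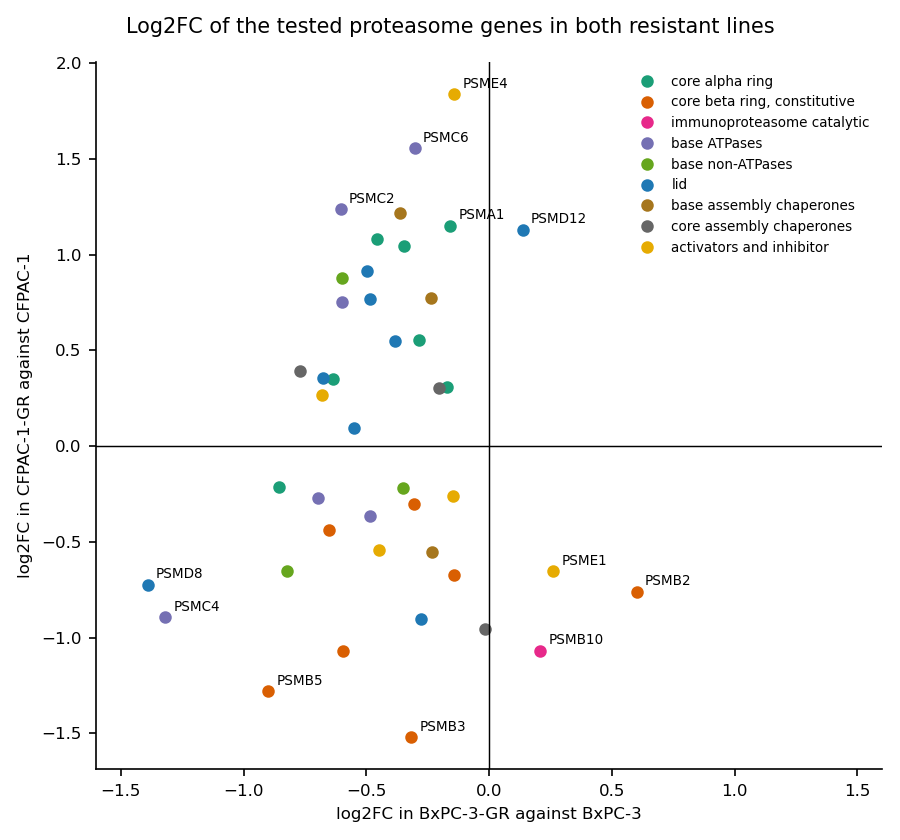
Log2FC of the 43 members tested in both lines, with BxPC-3-GR on the horizontal and CFPAC-1-GR on the vertical axis, both on the scale of log2(FPKM + 1), coloured by role. The beta ring genes lie in the lower part at both signs of the horizontal axis, and 17 members called in opposite directions fill the upper left.

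Of the alpha ring, whose subunits gate the entrance to the core, 5 of 7 genes fell in BxPC-3-GR and 0 rose. PSMA1 lay at 12.1, 11.5 and 12.3 FPKM in BxPC-3 and 8.76, 11.1 and 12.3 in BxPC-3-GR, ranges that overlapped (log2FC -0.16, SE 0.12, adjusted p = 0.279). Its values were 8.12, 7.67 and 7.49 FPKM in CFPAC-1 and 18.6, 18.4 and 18.4 in CFPAC-1-GR, 2.38 times the parental mean (log2FC 1.15, SE 0.062, adjusted p = 7.96e-06). After the correction PSMA1 still rose (0.79, adjusted p = 1.20e-04), the only one of the 6 alpha ring genes called up to do so. PSMA7, not called and below 0 before it (-0.21), was called up after it (0.41, adjusted p = 0.0128).

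For PSMA3 and PSMA4 every BxPC-3-GR library lay below every BxPC-3 library, and every CFPAC-1-GR library above every CFPAC-1 library. PSMA3 measured 13.9, 13.7 and 12.6 FPKM in BxPC-3 and 10.2, 10.3 and 10.4 in BxPC-3-GR (log2FC -0.35, SE 0.056, adjusted p = 0.00247). In the CFPAC-1 lines it went from 7.95, 7.74 and 7.22 FPKM to 17.7, 17.5 and 15.5 (log2FC 1.05, SE 0.078, adjusted p = 2.27e-05). After the correction its log2FC in CFPAC-1-GR was -0.065 (adjusted p = 0.444), no longer called and of the other sign. PSMA4 measured 12.7, 13.3 and 12.1 FPKM in BxPC-3 and 9.07, 8.38 and 9.46 in BxPC-3-GR (log2FC -0.46, SE 0.064, adjusted p = 0.00141). In CFPAC-1 its values were 4.78, 5.64 and 5.47 FPKM and in CFPAC-1-GR 11.9, 13.1 and 11.9 (log2FC 1.08, SE 0.081, adjusted p = 2.28e-05), and corrected 0.064 (adjusted p = 0.534).

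PSMA2 and PSMA5 went the same ways in both lines, but with smaller rises. PSMA2 was at 9.46, 10.5 and 9.32 FPKM in BxPC-3, 7.21, 8.06 and 8.27 in BxPC-3-GR, while the CFPAC-1 libraries had 6.42, 6.34 and 5.87 and those of CFPAC-1-GR 8.88, 10.3 and 9.67. Its log2FC was -0.28 ± 0.074 (SE) in BxPC-3-GR, against 0.55 ± 0.076 (SE) in CFPAC-1-GR (adjusted p = 0.0166 and 4.26e-04), the former -0.23 without BxPC-3 replicate 2 and then not called (adjusted p = 0.0503). PSMA5 was at 24.4, 23.3 and 24.1 FPKM in BxPC-3, 15.6, 15.1 and 14.4 in BxPC-3-GR, while the CFPAC-1 libraries had 19.2, 20.2 and 18.97 and those of CFPAC-1-GR 26.3, 24.6 and 24.2. The resistant and parental libraries of both genes were apart in both lines. PSMA5 changed by -0.64 ± 0.052 (SE) and 0.35 ± 0.067 (SE) on the log2 scale (adjusted p = 1.57e-04 and 0.00240). Corrected for GC content and length, both genes fell in CFPAC-1-GR, with a log2FC of -0.51 and -0.91, as did PSMA6 with -0.96. PSMA6 had risen there before the correction (log2FC 0.31, SE 0.11, adjusted p = 0.0311), a call lost without replicate 1 or 3 of CFPAC-1 or replicate 1 or 2 of CFPAC-1-GR (0.23 to 0.32). With upper-quartile scaling PSMA5 was at -0.066 and PSMA6 at -0.099. PSMA7, the most abundant alpha ring gene, fell in BxPC-3-GR (-0.86 ± 0.075 (SE)), from 94.04 to 51.5 FPKM, and was not called in CFPAC-1-GR.

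The constitutive beta ring fell as a whole in CFPAC-1-GR (7 of 7 genes, median log2FC -0.76) and in BxPC-3-GR in 5 of 7 genes (median -0.32). PSMB5 (chr14:23016543-23035230, minus strand) is the chymotrypsin-like subunit and the main target of proteasome inhibitors such as bortezomib, and it fell in both lines. Its FPKM were 31.4, 31.9 and 27.6 in BxPC-3 and 16.8, 15.4 and 14.998 in BxPC-3-GR, 0.520 of the parental mean (log2FC -0.90, SE 0.077, adjusted p = 1.86e-04). In CFPAC-1 they were 98.7, 78.5 and 72.6 and in CFPAC-1-GR 36.7, 29.1 and 34.96, 0.404 of the mean (log2FC -1.28, SE 0.14, adjusted p = 1.30e-04). The difference of response was -0.38 ± 0.17 (SE) and was not called (adjusted p = 0.0625).

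PSMB6 and PSMB7, the caspase-like and trypsin-like subunits, fell in both lines too. PSMB6 had 25.7, 25.3 and 23.2 FPKM in BxPC-3 and 14.2, 16.96 and 17.1 in BxPC-3-GR (log2FC -0.59, SE 0.086, adjusted p = 0.00156). It had 50.8, 41.1 and 42.1 FPKM in CFPAC-1 and 20.6, 21.99 and 19.4 in CFPAC-1-GR (log2FC -1.07, SE 0.10, adjusted p = 6.27e-05). All 3 resistant libraries lay below the parental ones in each case. PSMB7 had 75.6, 74.98 and 71.96 FPKM in BxPC-3 and 51.8, 51.2 and 38.7 in BxPC-3-GR, where replicate 3 was the lowest (log2FC -0.65, SE 0.12, adjusted p = 0.00388). The CFPAC-1 libraries had 77.5, 69.9 and 69.8 FPKM and those of CFPAC-1-GR 53.7, 57.2 and 48.8 (log2FC -0.44, SE 0.085, adjusted p = 0.00252). The 3 catalytic genes were at between 0.520 and 0.650 of the parental mean in BxPC-3-GR and at between 0.404 and 0.735 in CFPAC-1-GR. Corrected for GC content and length, PSMB5, PSMB6 and PSMB7 had a log2FC of -0.96, -0.51 and -0.30 in CFPAC-1-GR, each still called.

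PSMB3 and PSMB2 are beta ring subunits without an active site. PSMB3 had the largest uncorrected fall of all members in CFPAC-1-GR. It went from 20.8, 19.2 and 17.7 FPKM in CFPAC-1 to 4.68, 6.86 and 6.88 in CFPAC-1-GR, 0.319 of the mean (log2FC -1.52, SE 0.14, adjusted p = 6.38e-05). Corrected for GC content and length, its log2FC there was -1.03, a smaller fall than those of PSMB2 (-1.52) and PSMB1 (-1.16). These 3 genes were the SDE falls under the correction. In the BxPC-3 lines PSMB3 was far lower, at 2.27, 2.42 and 2.22 FPKM in BxPC-3 and 1.55, 1.81 and 1.61 in BxPC-3-GR (log2FC -0.32, SE 0.058, adjusted p = 0.00424). The difference of response was -1.20 ± 0.16 (SE), on a scale that understates the fall in the BxPC-3 lines at such low values.

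PSMB2 (chr1:35599544-35641844, minus strand) was the only beta ring gene that rose in BxPC-3-GR. Its FPKM were 25.5, 25.9 and 36.3 in BxPC-3 and 46.3, 47.5 and 39.4 in BxPC-3-GR (log2FC 0.60, SE 0.15, adjusted p = 0.0155). In CFPAC-1 they were 67.9, 65.8 and 89.7 and in CFPAC-1-GR 39.1, 39.3 and 52.1 (log2FC -0.76, SE 0.16, adjusted p = 0.00371). Replicate 3 stood above the other two in BxPC-3, CFPAC-1 and CFPAC-1-GR and below them in BxPC-3-GR, yet no group overlapped its counterpart. Without BxPC-3 replicate 2 the log2FC in BxPC-3-GR was 0.53 and was not called (adjusted p = 0.0505), and with the replicate number as a block it missed the threshold as well (adjusted p = 0.0516). The difference of response was -1.36 ± 0.24 (SE) (adjusted p = 3.28e-04). PSMB1 and PSMB4 fell in CFPAC-1-GR (-0.30 and -0.67), and in BxPC-3-GR PSMB1 fell (-0.31) and PSMB4 was not called (-0.14).

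The immunoproteasome subunits PSMB9 and PSMB10 were highest in CFPAC-1 and fell in CFPAC-1-GR. In the BxPC-3 lines PSMB9 was too low to be tested and PSMB10 was not called. PSMB8 (chr6:32840717-32844703, minus strand) was listed at 0 in all 12 libraries. Of 152 protein-coding genes on chromosome 6 between 29 and 33 Mb, 62 (40.8%) were listed at 0 in all 12 libraries, TUBB and CLIC1, which most cells express, and TAP1, the neighbor of PSMB9, among them, against 12.4% of 19665 protein-coding genes elsewhere. The value of PSMB8 is therefore a listing and not a measured absence of its RNA.

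PSMB9 (chr6:32844136-32859585, plus strand) was at 0.303, 0.379 and 0.281 FPKM in BxPC-3 and 0.447, 0.388 and 0.405 in BxPC-3-GR, below the limit for testing. For CFPAC-1 the values were 3.74, 2.85 and 2.71 FPKM, and for CFPAC-1-GR 1.49, 1.53 and 1.59, 0.496 of the parental mean (log2FC -0.68, SE 0.10, adjusted p = 6.92e-04). It lies in the same region of chromosome 6, and the part of this in its level was not tested. PSMB10 (chr16:67934502-67937087, minus strand) was at 3.71, 3.23 and 3.10 FPKM in BxPC-3 and 3.62, 4.07 and 4.38 in BxPC-3-GR, ranges that overlapped (log2FC 0.21, SE 0.083, adjusted p = 0.0732). At 21.8, 19.3 and 19.1 FPKM in CFPAC-1, it stood at 8.44, 9.91 and 8.75 in CFPAC-1-GR (log2FC -1.07, SE 0.088, adjusted p = 3.39e-05). Every CFPAC-1 library lay above every library of the other lines for both genes. Corrected for GC content and length, the fall of PSMB10 in CFPAC-1-GR was -0.16 and was not called (adjusted p = 0.0714), and its log2FC of 0.23 in BxPC-3-GR was (adjusted p = 0.0352).

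The share of immunoproteasome subunits in the FPKM of PSMB5 to PSMB10 does not depend on the scaling of the libraries. It was 2.94%, 2.66% and 2.68% in BxPC-3 and 4.68%, 5.07% and 6.33% in BxPC-3-GR, a difference of 2.60 percentage points (exact permutation p = 0.1, the smallest possible). In CFPAC-1 the share was 10.1%, 10.5% and 10.6%, and in CFPAC-1-GR 8.21%, 9.55% and 9.11%, a difference of -1.41 points (exact permutation p = 0.1). The groups overlapped in neither line, and the share was higher in BxPC-3-GR and lower in CFPAC-1-GR. From FPKM corrected for GC content and length, a calculation added after the data were seen, the difference was 2.71 points in the BxPC-3 lines and 1.34 in the CFPAC-1 lines (exact permutation p = 0.1 in each), so that the direction in CFPAC-1-GR turned. In BxPC-3-GR the uncorrected share was higher while PSMB5, PSMB6 and PSMB7 fell and PSMB10 was not called. By pairs of replaced subunits, PSMB10 made up 4.32% of PSMB10 plus PSMB7 in BxPC-3 and 8.02% in BxPC-3-GR, against 21.7% in CFPAC-1 and 14.5% in CFPAC-1-GR. PSMB9 made up 1.28% of PSMB9 plus PSMB6 in BxPC-3 and 2.53% in BxPC-3-GR, while the 6.46% in CFPAC-1 and 6.94% in CFPAC-1-GR did not differ beyond their spread (exact permutation p = 0.4). As PSMB8 was listed at 0, these shares lack it.

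**Figure D5:**
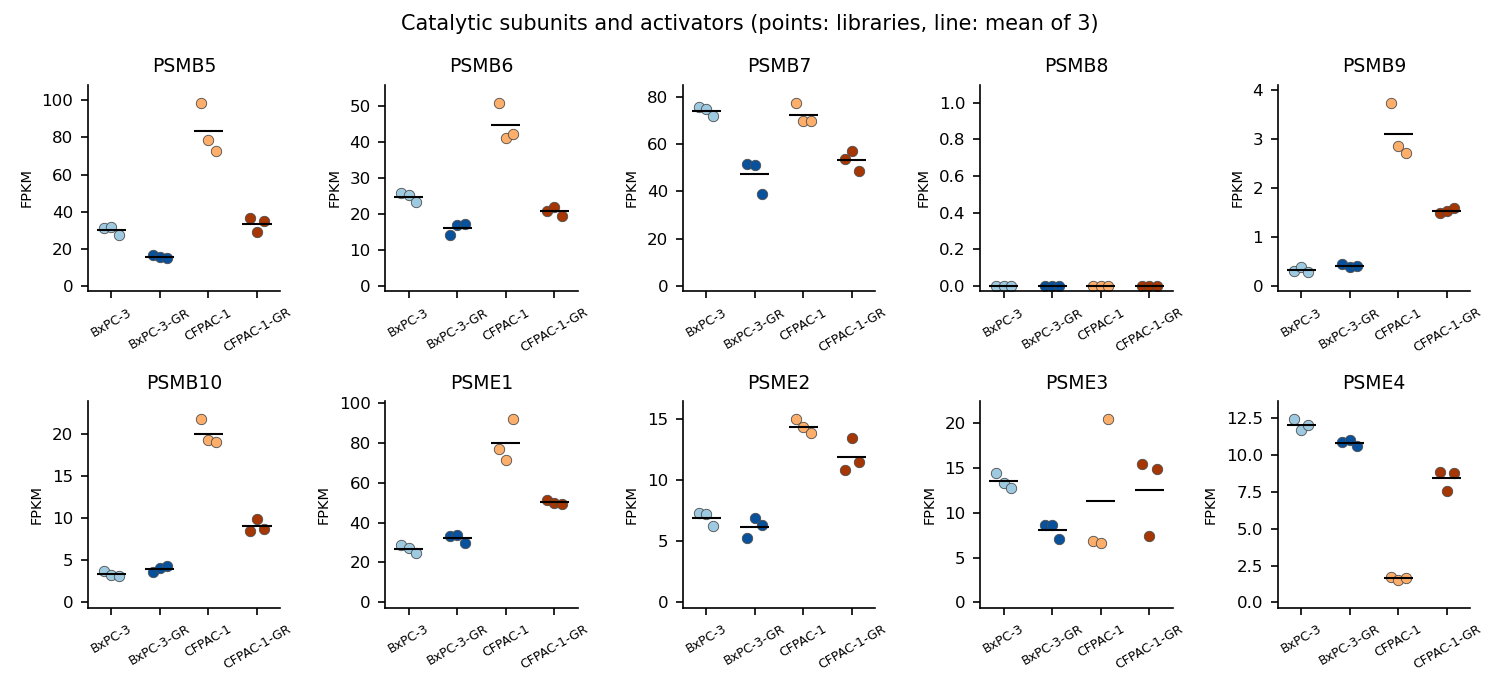
FPKM of the catalytic subunits PSMB5 to PSMB10 and the activators PSME1 to PSME4, with 1 point per library and a line at the mean of 3. PSMB5, PSMB6 and PSMB7 are lower in both resistant lines, PSMB8 is listed at 0 throughout, and PSME4 is lowest in CFPAC-1, where 1 library of PSME3 stands apart.

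PSME1 and PSME2 together form the activator ring that opens the core without ATP, and they lie near each other on chromosome 14. PSME1 (chr14:24136158-24138967, plus strand) was at 28.5, 27.2 and 24.6 FPKM in BxPC-3 and 33.2, 34.02 and 29.6 in BxPC-3-GR (log2FC 0.26, SE 0.081, adjusted p = 0.0330). CFPAC-1 had 77.1, 71.2 and 91.8 FPKM and CFPAC-1-GR 51.4, 50.05 and 49.3 (log2FC -0.65, SE 0.10, adjusted p = 8.19e-04). The groups did not overlap in either line, and PSME1 was beside PSMB2 the other member that rose in BxPC-3-GR, but fell in CFPAC-1-GR. The fall in CFPAC-1-GR was -0.23 after the correction and not called (adjusted p = 0.0979). The rise in BxPC-3-GR was not called when replicate 2 or 3 of BxPC-3 or replicate 1 or 2 of BxPC-3-GR was left out (log2FC 0.20 to 0.27, adjusted p = 0.0695 to 0.0985). PSME2 (chr14:24143362-24147570, minus strand) was at 7.28, 7.26 and 6.24 FPKM in BxPC-3 and 5.30, 6.90 and 6.33 in BxPC-3-GR, not called (log2FC -0.15, SE 0.10, adjusted p = 0.263). Its values were 14.97, 14.3 and 13.9 FPKM in CFPAC-1 and 10.8, 13.5 and 11.5 in CFPAC-1-GR (log2FC -0.26, SE 0.092, adjusted p = 0.0355). This fall was -0.14 after the correction (adjusted p = 0.144) and was not called without any 1 of the CFPAC-1 libraries or without replicate 1 or 3 of CFPAC-1-GR (-0.28 to -0.20). PSME1 was at 26.7 FPKM on average and PSME2 at 6.93 in BxPC-3, unequal on a scale per length, although a processed copy of PSME2, PSME2P2, carried 7.44 FPKM.

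Promoter sequences, from 250 bases before to 50 after the start of transcription, were read from RefSeq (GRCh38.p14) and matched 42 of the 48 members, the first listed start being used where there were several. The core of the interferon-stimulated response element, GAAA followed after any 2 bases by GAAA, stood on either strand in 6 of 42 (14.3%) and in 3.65% of the 27305 promoters of all genes. It occurred in PSMB10, PSME1 and PSME2, in each and in PSMG4 as GAAAGCGAAA, and with other letters in PSMA4 and PSMB4. The promoters of the 3 interferon-induced members with a match are shown with the match in capitals, PSME1 carrying it on the other strand, while the windows of PSMB8 and PSMB9 held no match, and none of the matches shown overlaps another motif. PSMB10 spans chr16:67936801-67937100, minus strand, PSME1 chr14:24135944-24136243, plus strand, and PSME2 chr14:24146561-24146860, minus strand.
PSMB10: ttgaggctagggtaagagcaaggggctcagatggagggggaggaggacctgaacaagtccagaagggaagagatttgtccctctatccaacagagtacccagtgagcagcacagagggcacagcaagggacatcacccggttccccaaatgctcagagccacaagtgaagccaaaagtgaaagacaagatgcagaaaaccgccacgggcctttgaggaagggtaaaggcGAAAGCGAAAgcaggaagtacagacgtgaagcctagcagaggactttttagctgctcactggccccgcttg
PSME1: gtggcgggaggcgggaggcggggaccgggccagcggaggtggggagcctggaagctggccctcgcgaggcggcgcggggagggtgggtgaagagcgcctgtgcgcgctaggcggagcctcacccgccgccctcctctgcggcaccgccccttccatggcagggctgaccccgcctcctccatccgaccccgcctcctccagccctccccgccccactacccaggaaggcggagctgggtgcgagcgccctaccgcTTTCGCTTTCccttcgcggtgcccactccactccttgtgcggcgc
PSME2: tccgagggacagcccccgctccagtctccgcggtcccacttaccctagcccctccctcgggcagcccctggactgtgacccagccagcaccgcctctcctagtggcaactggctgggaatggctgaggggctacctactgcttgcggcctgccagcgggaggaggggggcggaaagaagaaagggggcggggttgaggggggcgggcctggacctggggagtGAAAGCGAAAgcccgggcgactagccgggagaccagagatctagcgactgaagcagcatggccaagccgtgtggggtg

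TGACNNNGC, the core of the antioxidant response element to which NFE2L1 and NFE2L2 bind, occurred on either strand in 13 of 42 member promoters (30.95%) and in 13.6% of all. Of these 13 genes 12 were tested in BxPC-3-GR, where 9 fell and 1 rose, and 13 in CFPAC-1-GR, where 6 rose and 7 fell. Over all tested members the counts were 34 down and 2 up of 43 in BxPC-3-GR, and 20 up and 20 down of 45 in CFPAC-1-GR. The promoters of PSMC4, an SDE fall in BxPC-3-GR, and of PSME4, the largest uncorrected rise in CFPAC-1-GR, are shown with the match in capitals, both on the strand opposite to the gene. PSMC4 spans chr19:39970915-39971214, plus strand, and PSME4 chr2:53970944-53971243, minus strand.
PSMC4: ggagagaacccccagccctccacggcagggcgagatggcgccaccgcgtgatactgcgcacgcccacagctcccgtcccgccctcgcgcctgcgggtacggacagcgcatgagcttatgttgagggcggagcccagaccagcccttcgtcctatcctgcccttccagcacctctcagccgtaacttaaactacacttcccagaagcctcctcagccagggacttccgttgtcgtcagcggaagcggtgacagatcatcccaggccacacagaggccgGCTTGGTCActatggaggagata
PSME4: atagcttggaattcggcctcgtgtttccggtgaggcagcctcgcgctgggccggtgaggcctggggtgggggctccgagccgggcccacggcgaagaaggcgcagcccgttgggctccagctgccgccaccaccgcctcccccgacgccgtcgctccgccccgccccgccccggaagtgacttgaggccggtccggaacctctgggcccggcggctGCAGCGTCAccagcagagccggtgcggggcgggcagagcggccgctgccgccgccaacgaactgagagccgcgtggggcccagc

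CCAAT, a general promoter element, was in 19 of 42 (45.2%) against 35.7% of all promoters, and TTCNNNGAA, the gamma-activated site, in 5 (11.9%) against 7.88%. No TTCNNNGAA match was in the windows of PSMB10, PSME1 or PSME2. A match of letters is a description of the window, and binding was not measured.

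PSME3, the nuclear activator, fell in BxPC-3-GR, and PSME4, a nuclear activator of another family, had the largest uncorrected rise of all members in CFPAC-1-GR. PSME3 had 14.5, 13.3 and 12.8 FPKM in BxPC-3 and 8.63, 8.63 and 7.04 in BxPC-3-GR (log2FC -0.68, SE 0.091, adjusted p = 0.00116). The CFPAC-1 libraries had 6.80, 6.59 and 20.5 FPKM and those of CFPAC-1-GR 15.5, 7.38 and 14.9 (log2FC 0.26, SE 0.46, adjusted p = 0.611). Replicate 3 of CFPAC-1 and replicate 2 of CFPAC-1-GR stood apart from the others of their line, and the groups overlapped. PSME4 (chr2:53864067-53970840, minus strand) had 12.4, 11.7 and 12.1 FPKM in BxPC-3 and 10.9, 11.003 and 10.7 in BxPC-3-GR, a small fall (log2FC -0.14, SE 0.048, adjusted p = 0.0436). It was not called without any 1 of the 6 libraries (-0.16 to -0.12, adjusted p = 0.0623 to 0.117). For CFPAC-1 the values were 1.76, 1.52 and 1.63 FPKM, and for CFPAC-1-GR 8.88, 7.57 and 8.82, 5.15 times the parental mean (log2FC 1.84, SE 0.083, adjusted p = 6.28e-06). After the correction the rise of PSME4 was 0.66, below the 0.79 of PSMA1, and still called (adjusted p = 4.09e-04). Every CFPAC-1 library lay below every library of the other 3 lines. PSMF1, which binds the core and inhibits it in vitro, fell in both lines (-0.45 and -0.54).

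The 6 ATPases of the base, which unfold the substrate, all fell in BxPC-3-GR, with a median log2FC of -0.60, while in CFPAC-1-GR 3 rose, 2 fell and 1 was not called. PSMC4 (chr19:39971005-39981441, plus strand) had 44.8, 43.1 and 37.5 FPKM in BxPC-3 and 16.3, 17.1 and 14.9 in BxPC-3-GR, 0.386 of the parental mean (log2FC -1.32, SE 0.087, adjusted p = 7.27e-05). At 113, 100.1 and 100.1 FPKM in CFPAC-1, it stood at 60.6, 56.5 and 50.2 in CFPAC-1-GR (log2FC -0.89, SE 0.094, adjusted p = 1.06e-04). PSMC4 fell in both lines with no overlap, and by more in BxPC-3-GR (difference 0.43 ± 0.13 (SE), adjusted p = 0.0112), although upper-quartile scaling gave a difference of -0.048. After the correction its fall in CFPAC-1-GR was -0.37 (adjusted p = 0.0120) and the difference 0.90 (adjusted p = 5.93e-05).

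PSMC2, PSMC6 and PSMC1 were the ATPases that went opposite ways. PSMC2 had 31.04, 31.002 and 30.8 FPKM in BxPC-3 and 20.2, 20.3 and 19.5 in BxPC-3-GR (log2FC -0.60, SE 0.045, adjusted p = 1.10e-04). CFPAC-1 had 9.68, 10.8 and 10.7 FPKM and CFPAC-1-GR 25.95, 26.8 and 24.7 (log2FC 1.24, SE 0.072, adjusted p = 9.39e-06). Its rise was 0.17 after the correction and then was not called (adjusted p = 0.0932). PSMC6 had 5.26, 5.49 and 5.29 FPKM in BxPC-3 and 4.20, 4.08 and 4.15 in BxPC-3-GR (log2FC -0.30, SE 0.045, adjusted p = 0.00181). In CFPAC-1 it was the least abundant of the 31 constitutive subunits, at 0.924, 1.14 and 0.999 FPKM, and in CFPAC-1-GR it reached 5.28, 4.79 and 4.75 (log2FC 1.56, SE 0.074, adjusted p = 6.29e-06). The corrected rise of PSMC6 was 0.28 (adjusted p = 0.00705). PSMC1 had 6.57, 6.18 and 6.09 FPKM in BxPC-3 and 4.08, 3.69 and 3.67 in BxPC-3-GR, then 3.85, 2.94 and 3.83 in CFPAC-1 and 6.86, 7.05 and 5.96 in CFPAC-1-GR. Its log2FC was -0.60 ± 0.058 (SE) in BxPC-3-GR, against 0.75 ± 0.11 (SE) in CFPAC-1-GR (adjusted p = 3.12e-04 and 5.43e-04).

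PSMC1 is uncertain, because its processed copy PSMC1P1 on chromosome 3 was listed far above it in all 12 libraries. PSMC1P1 was at 119, 114 and 115 FPKM in BxPC-3 and 71.2, 71.1 and 64.6 in BxPC-3-GR. It was at 80.7, 76.2 and 74.4 in CFPAC-1 and 128, 129.7 and 120.2 in CFPAC-1-GR. The means of the copy and of the gene differed in the same direction in each pair of lines, and how fragments were divided between near-identical rows is not given in the sources used here. PSMA6 was likewise below a processed copy in 12 of 12 libraries and PSME2 below PSME2P2 in 10 of 12. In all, 32 pseudogene rows carry a member's name, 8 of them with 1 FPKM or more in any library. Exons of PSMC5 overlap FTSJ3 on the opposite strand by 874 bases, those of PSMC1 overlap NRDE2 by 4671, and PSMA6 shares 919 with AL121594.1 on its own strand, and no source used here says whether strand was used in counting.

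The other base subunits, PSMD1 and PSMD2, which scaffold the ring, and PSMD4, a ubiquitin receptor, all fell in BxPC-3-GR. PSMD1 had 25.5, 26.005 and 24.6 FPKM in BxPC-3 and 17.2, 16.6 and 15.5 in BxPC-3-GR (log2FC -0.60, SE 0.057, adjusted p = 2.95e-04). Its values were 16.3, 15.2 and 13.2 FPKM in CFPAC-1 and 28.7, 27.3 and 28.3 in CFPAC-1-GR (log2FC 0.88, SE 0.087, adjusted p = 8.36e-05), and corrected 0.17 (adjusted p = 0.132). PSMD2 fell in both lines, with a log2FC of -0.82 and -0.65. PSMD4 did so too (-0.35 and -0.22), though its value in CFPAC-1-GR was 0.099 after the correction and not called, nor was it called without any 1 of the CFPAC-1 libraries or without replicate 1 or 3 of CFPAC-1-GR (-0.23 to -0.18).

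The lid fell in BxPC-3-GR in 7 of 8 genes, with a median log2FC of -0.49, and in CFPAC-1-GR 5 rose and 2 fell. PSMD8 (chr19:38374536-38383824, plus strand), a lid subunit without a catalytic site, had the largest fall of all members in BxPC-3-GR. It went from 47.5, 45.7 and 42.1 FPKM in BxPC-3 to 17.3, 16.9 and 15.5 in BxPC-3-GR, 0.367 of the parental mean (log2FC -1.39, SE 0.069, adjusted p = 2.63e-05). The CFPAC-1 libraries had 55.4, 47.1 and 45.97 FPKM and those of CFPAC-1-GR 28.8, 31.1 and 28.6 (log2FC -0.72, SE 0.091, adjusted p = 2.68e-04). With PSMC4 it was 1 of the 2 SDE members of BxPC-3-GR.

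PSMD14, the deubiquitinase of the lid, and PSMD7, its partner, were among the genes that went opposite ways. PSMD14 had 10.3, 10.8 and 10.3 FPKM in BxPC-3 and 7.03, 7.48 and 6.87 in BxPC-3-GR (log2FC -0.50, SE 0.053, adjusted p = 4.56e-04). For CFPAC-1 the values were 4.27, 3.71 and 3.61 FPKM, and for CFPAC-1-GR 8.05, 8.64 and 7.74 (log2FC 0.91, SE 0.081, adjusted p = 4.66e-05). At 31.96% it has the lowest GC content of the members, and after the correction it fell in CFPAC-1-GR (-0.43, adjusted p = 0.0166). PSMD7 had 21.9, 24.9 and 24.7 FPKM in BxPC-3 and 17.3, 13.2 and 13.3 in BxPC-3-GR, then 17.8, 15.2 and 14.8 in CFPAC-1 and 19.2, 22.7 and 20.1 in CFPAC-1-GR. Its log2FC was -0.68 ± 0.11 (SE) and 0.36 ± 0.099 (SE) (adjusted p = 0.00294 and 0.0136), the latter -0.0013 after the correction and -0.056 with upper-quartile scaling.

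PSMD12, a lid subunit, was the only tested member of the lid with a value above 0 in BxPC-3-GR. It had 9.51, 8.92 and 8.51 FPKM in BxPC-3 and 11.2, 9.06 and 9.78 in BxPC-3-GR, not called (log2FC 0.14, SE 0.084, adjusted p = 0.210). At 8.66, 8.77 and 8.39 FPKM in CFPAC-1, it stood at 20.8, 20.2 and 19.1 in CFPAC-1-GR (log2FC 1.13, SE 0.065, adjusted p = 9.08e-06). Its corrected log2FC in CFPAC-1-GR was -0.089 (adjusted p = 0.238). PSMD13 and PSMD6, further lid subunits, fell in BxPC-3-GR, but rose in CFPAC-1-GR without overlap. PSMD13 had 7.97, 9.35 and 8.70 FPKM in BxPC-3, 6.13, 6.41 and 5.20 in BxPC-3-GR, while the CFPAC-1 libraries had 7.997, 8.33 and 7.12 and those of CFPAC-1-GR 13.3, 15.6 and 13.3, with a log2FC of -0.49 ± 0.090 (SE) and 0.77 ± 0.093 (SE). PSMD6 had 6.62, 6.25 and 6.74 FPKM in BxPC-3, 4.54, 5.31 and 4.50 in BxPC-3-GR, while the CFPAC-1 libraries had 2.89, 3.11 and 2.77 and those of CFPAC-1-GR 5.12, 4.55 and 4.52, with a log2FC of -0.38 ± 0.071 (SE) and 0.55 ± 0.074 (SE). The correction left PSMD13 higher in CFPAC-1-GR (0.59, adjusted p = 0.00121) and turned PSMD6 to a fall (-0.79, adjusted p = 1.21e-04). PSMD3 fell in both lines (-0.28 and -0.90), the former not called without BxPC-3 replicate 1 or BxPC-3-GR replicate 3 (-0.22 in each), and PSMD11 fell in BxPC-3-GR (-0.55) and was not called in CFPAC-1-GR (0.096).

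PSMD5, PSMD9 and PSMD10 are chaperones that hold parts of the ATPase ring during assembly and are absent from the finished particle. All 3 fell in BxPC-3-GR. PSMD5 had 21.7, 22.2 and 23.6 FPKM in BxPC-3 and 17.2, 17.8 and 16.8 in BxPC-3-GR (log2FC -0.36, SE 0.054, adjusted p = 0.00183). CFPAC-1 had 3.84, 4.15 and 3.996 FPKM and CFPAC-1-GR 11.2, 10.1 and 10.6 (log2FC 1.22, SE 0.068, adjusted p = 8.51e-06). The rise of PSMD5 was 0.25 after the correction and still called (adjusted p = 0.00828). PSMD10, also known as gankyrin, had 9.56, 9.78 and 10.5 FPKM in BxPC-3 and 7.81, 8.07 and 9.02 in BxPC-3-GR (log2FC -0.24, SE 0.069, adjusted p = 0.0270). Its values were 4.57, 4.66 and 4.46 FPKM in CFPAC-1 and 8.82, 8.89 and 7.81 in CFPAC-1-GR (log2FC 0.77, SE 0.072, adjusted p = 6.10e-05), and corrected -0.037 (adjusted p = 0.618). Its fall in BxPC-3-GR was not called without replicate 2 or 3 of BxPC-3 or replicate 1 or 2 of BxPC-3-GR (-0.25 to -0.20, adjusted p = 0.0596 to 0.0838) or under the correction. PSMD9 fell in both lines (-0.23 and -0.55).

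PSMG1 and PSMG2 form the dimer that starts assembly of the alpha ring, and PSMG3 and PSMG4 form another. PSMG1 had 17.1, 15.7 and 14.7 FPKM in BxPC-3 and 9.04, 9.55 and 7.99 in BxPC-3-GR (log2FC -0.77, SE 0.085, adjusted p = 5.18e-04). The CFPAC-1 libraries had 6.46, 6.54 and 5.89 FPKM and those of CFPAC-1-GR 8.72, 9.64 and 7.51 (log2FC 0.39, SE 0.098, adjusted p = 0.00802). PSMG2 had 6.78, 6.57 and 6.28 FPKM in BxPC-3, 5.34, 5.84 and 5.48 in BxPC-3-GR, while the CFPAC-1 libraries had 1.66, 1.81 and 1.76 and those of CFPAC-1-GR 2.20, 2.80 and 2.19, with a log2FC of -0.20 ± 0.055 (SE) and 0.30 ± 0.088 (SE). Both genes of this dimer fell in BxPC-3-GR, but rose in CFPAC-1-GR, where neither call was kept under median-of-ratios or upper-quartile scaling. Corrected, PSMG1 was at 0.16 in CFPAC-1-GR and not called (adjusted p = 0.161). The fall of PSMG2 was not called without replicate 1 or 2 of BxPC-3 or replicate 1 or 3 of BxPC-3-GR (-0.20 to -0.18, adjusted p = 0.0533 to 0.068). PSMG3 fell in CFPAC-1-GR (-0.96, but -0.12 and not called once corrected, adjusted p = 0.459) and was not called in BxPC-3-GR (-0.017), and PSMG4 was not called in CFPAC-1-GR (0.0021) and was below the limit in the BxPC-3 lines. The tissue-restricted PSMA8, of the testis, was listed at 0 in all 12 libraries and PSMB11, of the thymus, at 0.0376 FPKM or less.

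Genes that work with the proteasome were read from a list of 32. In BxPC-3-GR 15 of 29 tested genes fell and 3 rose, with a median log2FC of -0.28, and in CFPAC-1-GR 11 of 28 fell and 11 rose, with a median of -0.12. As shares of those tested, 51.7% fell and 10.3% rose in BxPC-3-GR (31.5% and 26.2% of all genes), and 39.3% fell and 39.3% rose in CFPAC-1-GR (34.9% and 44.6%). ADRM1, the ubiquitin receptor of the base that is not named PSM, fell in both lines. It had 105, 103 and 88.03 FPKM in BxPC-3 and 42.4, 44.7 and 38.4 in BxPC-3-GR (log2FC -1.22, SE 0.092, adjusted p = 1.18e-04). For CFPAC-1 the values were 161, 150.4 and 148 FPKM, and for CFPAC-1-GR 60.2, 66.6 and 60.7 (log2FC -1.28, SE 0.073, adjusted p = 9.01e-06), -0.26 after the correction (adjusted p = 0.0104). POMP, the chaperone that carries the core to maturity, fell in BxPC-3-GR (-0.47), but rose in CFPAC-1-GR (0.44), where it fell once corrected (-0.56).

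The deubiquitinases UCHL5 and USP14 bind to the base. UCHL5 fell in BxPC-3-GR (-0.49), but rose in CFPAC-1-GR (1.22), and USP14 was not called in the former (-0.37) and rose in the latter (1.33), though after the correction neither was called in CFPAC-1-GR (-0.11 and 0.086). UBA1, the main ubiquitin-activating enzyme, fell in both lines (-0.23 and -1.03).

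NFE2L1, the factor that induces proteasome genes, was not called in either line (0.15 ± 0.28 (SE) in BxPC-3-GR, against -0.28 ± 0.24 (SE) in CFPAC-1-GR). DDI2, the protease that activates it, had 8.86, 9.23 and 9.95 FPKM in BxPC-3 and 7.01, 6.95 and 6.70 in BxPC-3-GR (log2FC -0.39, SE 0.057, adjusted p = 0.00169). At 1.09, 1.21 and 1.16 FPKM in CFPAC-1, it stood at 9.27, 6.60 and 8.70 in CFPAC-1-GR (log2FC 2.08, SE 0.12, adjusted p = 9.01e-06), 0.97 after the correction (adjusted p = 1.78e-04). NFE2L2 rose in CFPAC-1-GR (1.44, corrected 0.87) and was not called in BxPC-3-GR. IRF1, a transcription factor of the interferon response, rose in BxPC-3-GR (0.50), but fell in CFPAC-1-GR (-0.27).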

How the data were processed

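RNA of the 4 lines was sequenced in 3 libraries each. The authors deposited 1 table of FPKM for 58302 genes, with GRCh38 and Ensembl release 91 as the reference. The submitters' processing notes name Trimmomatic 0.27, FastQC 0.10.1 and TopHat2 2.0.8, and both hg19 and GRCh38. The counting program is not given in the sources used here. As FPKM are not counts, no count test was run. The depth, inferred from steps of low values as 12600000 to 25200000 fragments, limits genes of low FPKM most.

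The members and gene lists were chosen with earlier results of these data known. Resistant and parental libraries of a pair were compared by limma 3.58.1 (lmFit, eBayes, R 4.3.3) on log2(FPKM + 1), with no blocking term. A gene entered a comparison if its 6 libraries averaged 1 FPKM or more. Changes of low genes are understated on this scale. Calls had a Benjamini-Hochberg adjusted p below 0.05 over all genes tested, and SDE also an absolute log2FC above 1. The study used the same limits with a count-based test. The interaction used all 12 libraries. GC content (of the longest transcript) and exon length came from GENCODE release 29, which held all 48 members, and the correction was a spline with 5 degrees of freedom on each. Immunoproteasome shares were compared with 2-sided exact permutation tests. Values in every library are given for PSMB5 to PSMB10, PSME1 to PSME4, the 3 largest rises and falls in each line, SDE members, and members called in opposite directions in the 2 lines with a called interaction. Others are given by range or as examples. The settings varied were the pseudocount (0.1), the filter (none), the fit (12 libraries together), a block on replicate number, the correction with and without the block, median-of-ratios and upper-quartile scaling, protein-coding genes only, a prior variance with a mean trend, and each library left out in turn. The share from corrected FPKM was added after the data were seen. The fits were tested on simulated data. Figures were drawn with matplotlib 3.10.9 in Python 3.11.15. The authors' enrichment results were not used here, and some genes of the pathway list are not reported here.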

Additional observations from a re-analysis of the deposited data

Results flagged for a closer look

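For 17 members the response to GEM selection differed between the 2 lines by an interaction term with an adjusted p below 0.05 and an absolute value above 1 (limma over 12 libraries, against 23.6% of all tested genes higher and 14.4% lower). The difference, as the log2FC in CFPAC-1-GR minus that in BxPC-3-GR, was positive in 14. Among the core genes it was 1.31 for PSMA1, 1.39 for PSMA3 and 1.54 for PSMA4. In the base it was 1.35 for PSMC1, 1.84 for PSMC2, 1.86 for PSMC6 and 1.47 for PSMD1. The lid genes PSMD7, PSMD13 and PSMD14 had 1.03, 1.25 and 1.41. The chaperones PSMD5, PSMD10 and PSMG1 had 1.58, 1.01 and 1.17, and the activator PSME4 1.98. The 3 with a negative difference were beta subunits, PSMB2 at -1.36, PSMB3 at -1.20 and PSMB10 at -1.28. Corrected for GC content and length, 15 members had an adjusted p below 0.05 in the same direction, but the absolute difference was above 1 in only 3 of the 17, PSMB2 (-2.10), PSMC1 and PSMD13 (1.07). It was 0.23 for PSMA3, 0.55 for PSMA4 and -0.36 for PSMB10. Not called were PSMD10 (0.15, adjusted p = 0.149) and PSMD14 (0.12, adjusted p = 0.50).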

How the results depend on the processing

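In BxPC-3-GR no called log2FC of a member changed sign under the alternatives run, and the count of members down lay between 30 and 34 with a library left out. Members up there numbered 2, and 1 without the filter, with the replicate block and with the correction plus the replicate block, and 0 to 3 with a library left out, 0 being without BxPC-3 replicate 2. In CFPAC-1-GR members up fell from 20 to 9 with the correction, with or without the replicate block, and lay between 19 and 20 with a library left out. SDE members up there went from 8 to 0 with the correction, also with the block, and to 2 under median-of-ratios and 2 under upper-quartile scaling, while SDE members down went from 4 to 9 and 12 under these scalings. Members whose response differed by more than 1 between the lines went from 17 to 6 with the correction, with and without the block, and to between 15 and 20 with a library left out.

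With the correction, in the fits with and without the replicate block alike, these called values in CFPAC-1-GR changed sign: PSMA2 -0.51, PSMA3 -0.065, PSMA5 -0.91, PSMA6 -0.96, PSMC3 0.27, PSMD4 0.099, PSMD6 -0.79, PSMD7 -0.0013, PSMD10 -0.037, PSMD12 -0.089 and PSMD14 -0.43. So did these differences of response: PSMA2 -0.22, PSMA5 -0.27, PSMA6 -0.78, PSMB6 0.024, PSMD6 -0.38 and PSMD12 -0.22. Upper-quartile scaling gave PSMA5 -0.066, PSMA6 -0.099 and PSMD7 -0.056 in CFPAC-1-GR, and differences of -0.056 for PSMG4 and -0.048 for PSMC4. The cause was not tested.

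The difference of immunoproteasome share in the BxPC-3 lines was 1.26 points from PSMB9 and PSMB6 alone, 3.71 from PSMB10 and PSMB7 and 0 from PSMB8 and PSMB5, and 2.12 to 2.94 with a library left out. In the CFPAC-1 lines the same pairs gave 0.48, which reversed the sign, then -7.15 and 0, and the range with a library left out was -1.71 to -1.04. From corrected FPKM, an alternative chosen after seeing the data, it was 1.34 in the CFPAC-1 lines, of the other sign, and 2.71 in the BxPC-3 lines.

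Deviations of resistant and parental libraries with the same replicate number correlated between -0.14 and 0.096. Those with different numbers correlated between -0.11 and 0.13, so no pairing by number was seen. These correlations cannot show whether the libraries were prepared in pairs. The replicate block left 33 members down in BxPC-3-GR and 20 up and 19 down in CFPAC-1-GR. FPKM carry no counts, so no counting error could be given, and members below 1 FPKM were not tested.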
